A study of Mus musculus with 6 samples.

Results

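The genes for the proteins of the mitochondrial ribosome were described in aortas of miRNA-26b-/- and miRNA-26b+/+ mice. Members were the rows of the gene table whose symbol is Mrps or Mrpl with a number, with or without a final letter a, b or c, and without the mark of a pseudogene. This gave 78 genes of the 55341 in the table, 29 named for the small subunit (Mrps) and 49 named for the large subunit (Mrpl). All 78 passed the filter on low counts, as did 16017 genes in all.

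The mitochondrial ribosome translates the few mRNAs of the mitochondrial genome, which code for subunits of the respiratory chain and of ATP synthase. Its rRNAs come from the mitochondrial genome, while all of its proteins are made in the cytosol from nuclear genes and imported. The small subunit holds the mRNA and decodes it, and the large subunit joins the amino acids and lets the new chain out at the inner membrane.

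RNA was sequenced from aortic tissue (aortic arch and thoracic aorta by the methods) of 3 miRNA-26b-/- mice, giving the libraries M2626, M2627 and M2628, and of 3 miRNA-26b+/+ mice, giving M2629, M2630 and M2631. The mice were 8 weeks old, of the strain C57BL/6NCrl by the labels, and received chow. The knockout came from targeted embryonic stem cells of 129/Sv origin, in which loxP sites were placed around miRNA-26b inside an intron of Ctdsp1 and the segment was removed in the mice with tamoxifen-induced CreERT2, which was then bred out. The driver of CreERT2 is not given in the sources used here.

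Libraries held 25706728 to 33345037 counts. The precursor of miRNA-26b had 0 counts in 5 libraries and 20 in M2630, and Ctdsp1, its host gene, had 151 to 201 CPM (counts scaled to the library's total over all genes), so these poly(A) libraries gave no check of the genotype labels. The labels name endothelial cells, but 6 smooth muscle genes summed to 30930 to 40340 CPM and 7 endothelial genes to 403 to 1595 CPM. The smooth muscle sum far exceeded the endothelial sum in every library. Such sums do not measure the share of RNA from each cell type. In bulk tissue, fewer cells of a type and less RNA per cell cannot be told apart. Some genes of other tissues were higher in miRNA-26b-/- by an unadjusted edgeR p under 0.05. These included 5 of 5 Schwann cell genes (summed CPM 514, 503 and 333 in miRNA-26b-/- and 212, 233 and 276 in miRNA-26b+/+). They also included 4 of 5 skeletal muscle genes (26.3, 83.8 and 8.49 against 6.59, 11.1 and 2.14, sums that overlap) and 2 of 5 sympathetic neuron genes. Over all genes tested, 6.47% passed in either direction. None of 7 endothelial genes passed, and their sums were 403, 454 and 1595 CPM against 1105, 1484 and 1298.

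The seed of miRNA-26b-5p is shown here because a match to it is a way for the deleted RNA to touch a member directly. The knockout also lacks miRNA-26b-3p, and sites for it were not searched. The paper saw no compensatory change in the closely related miRNA-26a, which was not deleted. Whether miRNA-26a can use the same sites was not tested, so a site below is not specific to miRNA-26b-5p. In the mature miRNA-26b-5p of RefSeq (GRCm38.p6, chr1:74394324-74394344, plus strand), capitals mark the seed, bases 2 to 8.
miR-26b-5p: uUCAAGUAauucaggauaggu

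A site was searched in the annotated 3′ UTR of each gene (GENCODE M21, GRCm38, longest 3′ UTR) as TACTTGAA (8mer), as TACTTGA (7mer-m8) or as ACTTGAA (7mer-A1), in the sense strand only. An 8mer contains both shorter sites and was counted as an 8mer. An 8mer or 7mer-m8 was held by 5 of 78 members, 6.41%, and by 11.3% of the 13464 genes tested that have an annotated 3′ UTR. With 7mer-A1 included the shares were 12.8% and 21.4%. The 3′ UTRs of members were short, with a median of 388.5 bases against 1205 over the genes tested. In Mrpl48 and Mrps17 the longest 3′ UTR, of 3557 and 4401 bases, exceeded the median coding transcript, of 865 and 851 bases. Shorter transcripts of these genes may lack the sites given below. Mrps30 also held a 7mer-A1, which is not printed. The 5 members and their 8mer or 7mer-m8 sites are given with the matched bases in capitals.
Mrpl19 (8mer, chr6:81960128-81960157, minus strand): gctacagagtcTACTTGAAtagttttagtg
Mrpl48 (8mer, chr7:100547291-100547320, minus strand): gctgagcatggTACTTGAAttcagttgtta
Mrpl51 (7mer-m8, chr6:125195916-125195944, plus strand): ttgtcttactgTACTTGAtatgccatggc
Mrps17 (7mer-m8, chr5:129719710-129719738, plus strand): aacttaaatttTACTTGAccactactcaa
Mrps17 (7mer-m8, chr5:129721157-129721185, plus strand): cgtctataagaTACTTGAccaattgatgt
Mrps30 (7mer-m8, chr13:118379196-118379224, minus strand): cacacatttctTACTTGAcattttataaa

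No member changed between genotypes after adjustment over all genes (edgeR quasi-likelihood test, Benjamini-Hochberg, lowest adjusted p 0.736), and 1 of 78 had an unadjusted p under 0.05, Mrps11, which was higher in miRNA-26b-/-. Over all genes tested, 6.47% had an unadjusted p under 0.05 (3.4% higher and 3.07% lower in miRNA-26b-/-) and 0.00624%, 1 gene, had an adjusted p under 0.05. The count among members, 1.28% of 78, is below that background. Of 9669 genes with a mean level in the range of the members, 2.58 to 57.5 CPM, 5.61% had an unadjusted p under 0.05.

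The log2 fold changes of the members lay between -0.57 (Mrpl23) and 1.0 (Mrps11). The median was 0.08 in each subunit and 0.01 over all genes tested, with 16 of 29 small-subunit genes and 27 of 49 large-subunit genes above 0. The standard error of a log2 fold change had a median of 0.31 in the small subunit and 0.28 in the large. Hence 62 of 78 members had a 95% interval that lay within a log2 fold change of 1 in either direction, and 5 had one that lay within 1.5-fold. For 73 members the interval reached past 1.5-fold and for 16 past 2-fold, so changes of that size were not excluded in them.

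**Figure D1:**
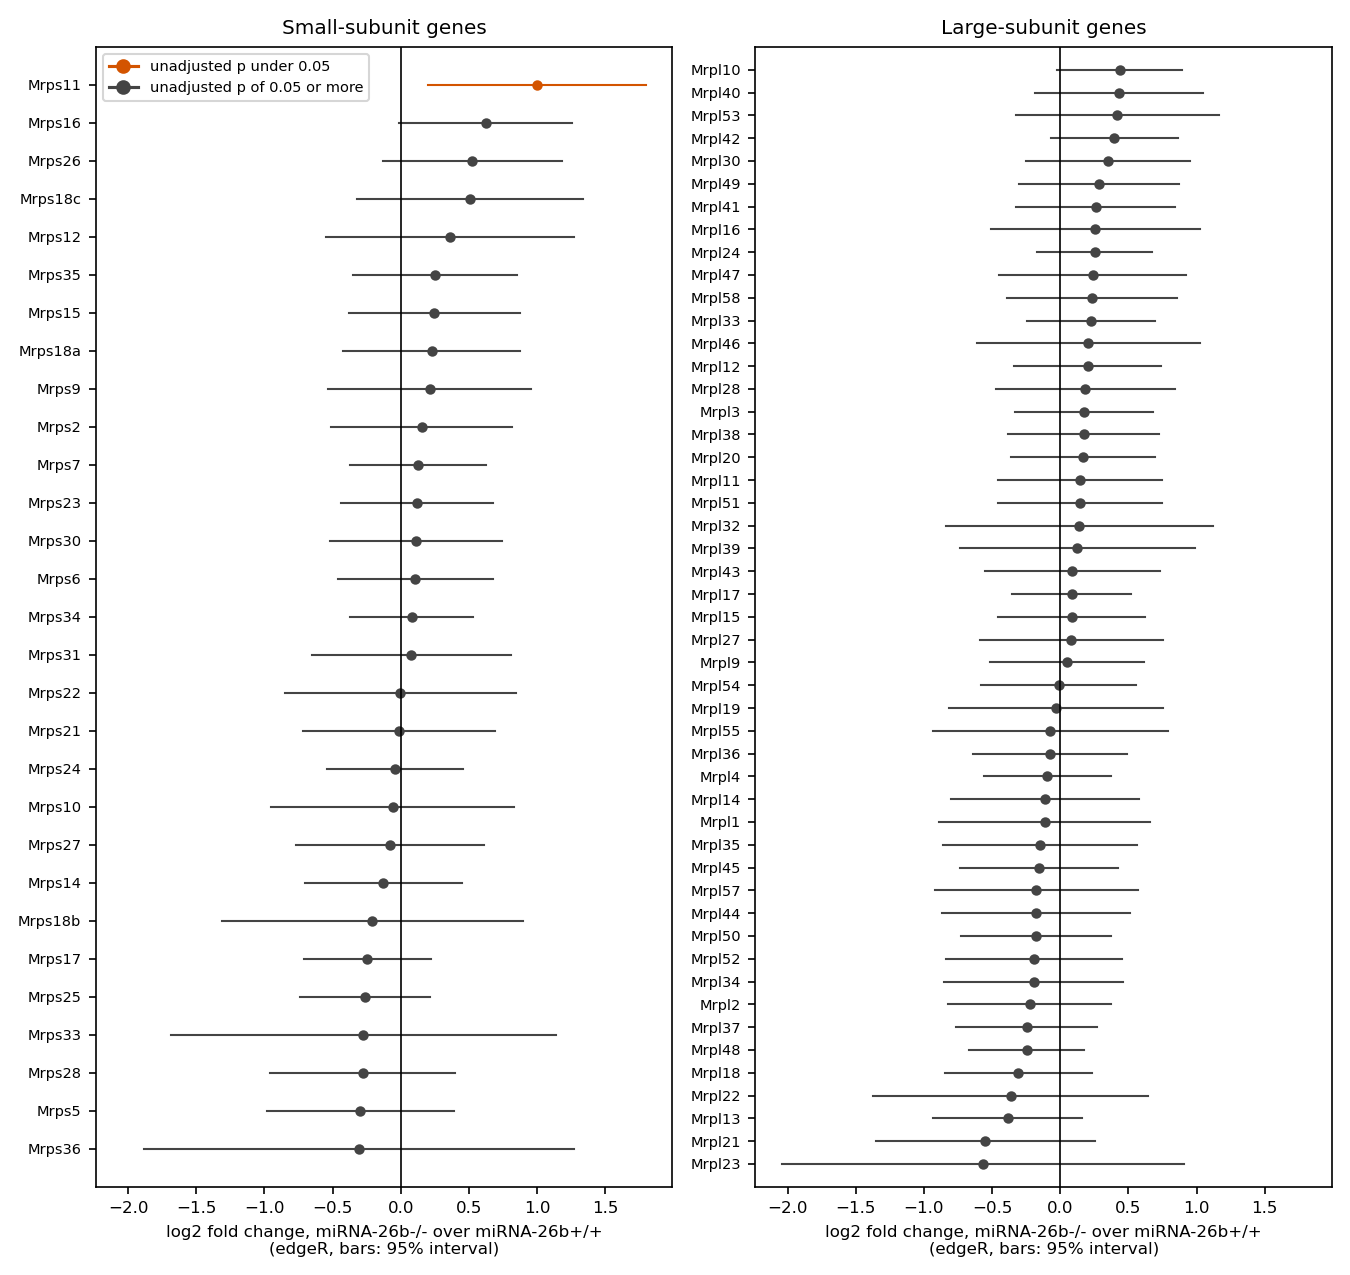
The log2 fold change of each of the 78 genes with its 95% interval (bars), small subunit on the left and large subunit on the right, each sorted by value. The interval of Mrps11, from 0.20 to 1.80, is the only one that leaves out 0.

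Of the 78 members, 6 had all 3 miRNA-26b-/- libraries above all 3 miRNA-26b+/+ libraries and 1 had them below. Over all genes tested the groups did not overlap in 11.7%, 6.13% with miRNA-26b-/- higher and 5.52% with it lower. The 6 higher members are close to that background and the 1 lower member is under it.

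Mrps11 codes for a protein of the small subunit that lies on its platform, near the exit site for tRNA. Its level was 17.4, 18.7 and 11.8 CPM in miRNA-26b-/- and 5.83, 9.48 and 8.57 CPM in miRNA-26b+/+. The lowest knockout library, M2628, lay above the highest wild-type library, M2630. The log2 fold change was 1.0 (SE 0.37, 95% interval 0.20 to 1.80, edgeR unadjusted p 0.0175, adjusted p 0.736). Without M2627 it was 0.86 with an unadjusted edgeR p of 0.0705 and without M2629 it was 0.80 with 0.0789. An exact permutation test of 3 against 3 libraries can give no two-sided p under 0.1. Most of the Schwann cell and skeletal muscle genes read were also higher in miRNA-26b-/- by unadjusted p, as given above. Their part in the result was not tested.

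Mrps11 (ENSMUSG00000030611, chr7:78783119-78792989, plus strand, GRCm38) starts head to head with the large-subunit gene Mrpl46 on the opposite strand. The first exons overlap, so that 7.97% of the exon bases of Mrps11 and 12.2% of those of Mrpl46 are shared, and the counts were made without strand. Mrpl46 had 14.7, 12.7 and 9.68 CPM in miRNA-26b-/- and 6.82, 11.6 and 13.3 CPM in miRNA-26b+/+. Its groups overlapped, with a log2 fold change of 0.21 (SE 0.38).

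Mrps16, a small-subunit protein also found in bacteria, had 40.7, 27.5 and 24.9 CPM in miRNA-26b-/- and 21.9, 24.6 and 13.1 CPM in miRNA-26b+/+. The groups did not overlap, but M2628 and M2630 differed by little. The log2 fold change was 0.62 (SE 0.30, edgeR unadjusted p 0.0530, adjusted p 0.769). With a library left out it ranged from 0.39 without M2626 (unadjusted edgeR p 0.250) and 0.39 without M2631 (0.224) to 0.76 without M2628 (0.0241) and 0.81 without M2630 (0.0372).

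Mrps17 was the member with every miRNA-26b-/- library below every miRNA-26b+/+ library. It had 29.6, 28.0 and 31.5 CPM against 38.1, 31.6 and 34.5 CPM. The nearest libraries, M2628 and M2630, were almost level, and the log2 fold change was -0.24 (SE 0.22, edgeR unadjusted p 0.282). Mrps17, a core protein of the small subunit, also holds a pair of 7mer-m8 sites.

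Among large-subunit genes, Mrpl10 codes for a protein of the stalk base, where translation factors dock. Its level was 40.3, 47.1 and 61.0 CPM in miRNA-26b-/- and 34.9, 37.4 and 36.2 CPM in miRNA-26b+/+. The wild-type libraries lay close together (SD 1.25) and the knockout libraries were spread (SD 10.5), with a log2 fold change of 0.44 (SE 0.21, edgeR unadjusted p 0.0601). It was 0.27 without M2628 (edgeR unadjusted p 0.235) and 0.55 without M2626 (0.0296), the ends of its range with a library left out.

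Mrpl42 and Mrpl40 belong to the proteins that the mitochondrial ribosome has and its bacterial relatives lack. Mrpl42 had 40.7, 36.1 and 36.1 CPM in miRNA-26b-/- and 27.4, 27.0 and 30.1 CPM in miRNA-26b+/+. Mrpl40 had 18.0, 19.3 and 23.3 CPM against 14.7, 16.5 and 13.4 CPM. Both had groups that did not overlap, with log2 fold changes of 0.40 (SE 0.22) and 0.43 (SE 0.29) and unadjusted edgeR p-values of 0.0892 and 0.154.

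Mrpl17 was the most even member over the 6 libraries. It had 39.1, 37.9 and 37.5 CPM in miRNA-26b-/- and 35.0, 36.0 and 35.8 CPM in miRNA-26b+/+, so the highest library was 1.12 times the lowest. The groups did not overlap although the log2 fold change was 0.09 (SE 0.21).

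**Figure D2:**
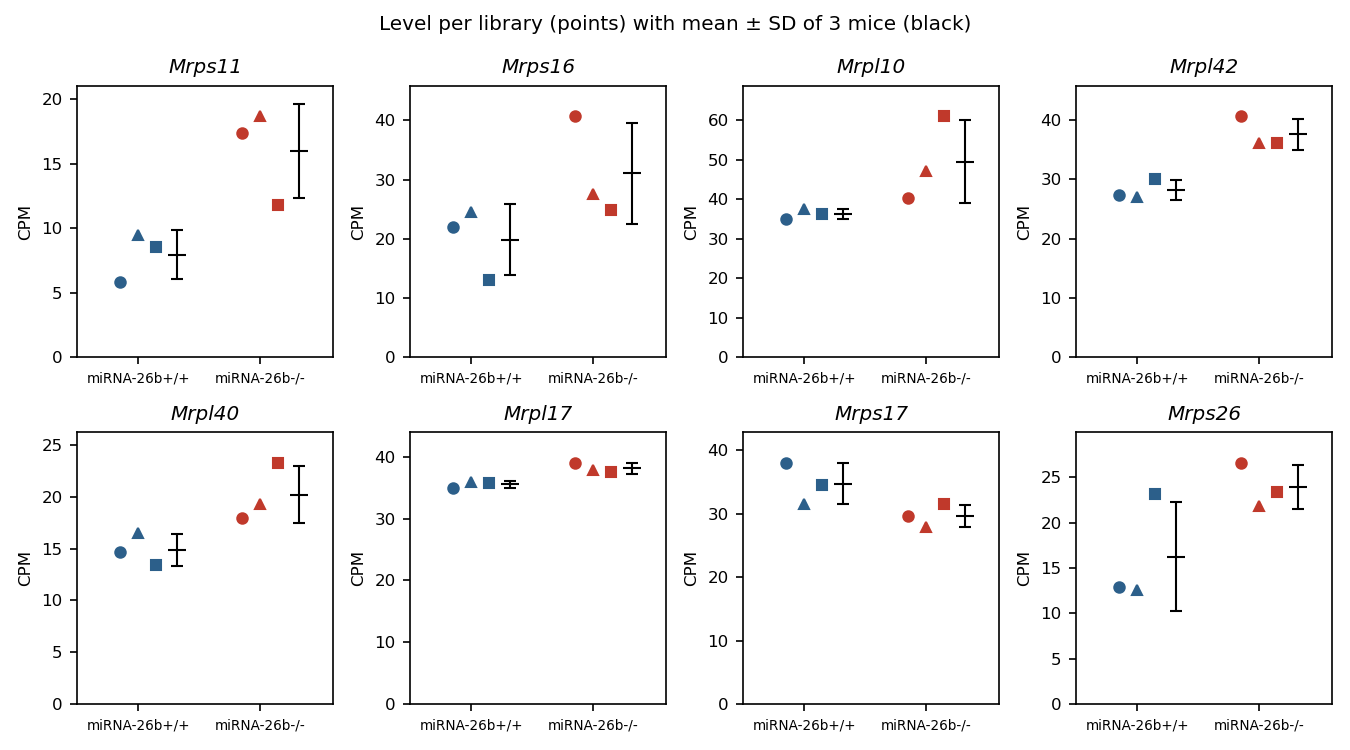
CPM in each library (points, blue for miRNA-26b+/+ and red for miRNA-26b-/-) with the mean ± SD of 3 mice (black) for the 7 genes whose groups did not overlap and for Mrps26. Mrps11 ran from 5.83 to 18.7 CPM, while Mrpl17 stayed between 35.0 and 39.1 CPM.

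The other members with large fold changes had overlapping groups. Mrps26 had 26.6, 21.9 and 23.4 CPM in miRNA-26b-/- against 12.9, 12.6 and 23.2 CPM, so that M2631 lay with the knockout libraries. Its log2 fold change was 0.53 (SE 0.31), and with a library left out it ranged from 0.37 without M2629 (edgeR unadjusted p 0.305) to 0.89 without M2631 (0.0184). Mrps18c had a log2 fold change of 0.51 (SE 0.39), with the knockout libraries between 7.90 and 22.1 CPM. It was 0.18 without M2628 and 0.78 without M2626. Mrpl21 and Mrpl23 had the lowest values, -0.55 (SE 0.38) and -0.57 (SE 0.69). With a library left out, Mrpl21 ranged from -0.87 without M2626 to -0.34 without M2628, and Mrpl23 from -1.71 without M2627 to -0.082 without M2629. Mrpl23, which lies at the exit of the peptide tunnel, had 1.75, 5.97 and 1.11 CPM in miRNA-26b-/- and 7.28, 3.20 and 3.31 CPM in miRNA-26b+/+, the highest 6.55 times the lowest.

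Genes with known roles at the working sites of the ribosome were read next. Mrps12, a protein of the decoding centre, had a log2 fold change of 0.36 (SE 0.43). Mrpl12, the stalk protein, which also binds the mitochondrial RNA polymerase, had 50.6, 40.8 and 29.1 CPM against 32.6, 42.6 and 28.8 CPM and a log2 fold change of 0.20 (SE 0.25). Mrpl3, near the peptidyl transferase centre, had 0.17 (SE 0.24), and Mrpl58, a peptide release protein built into the large subunit, had 0.23 (SE 0.29). None of these passed the test.

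Mrps22, Mrps27 and Mrps34 are proteins of the small subunit that bacteria lack. Their log2 fold changes were -0.00 (SE 0.40), -0.08 (SE 0.32) and 0.08 (SE 0.21). Mrps18a, Mrps18b and Mrps18c are paralogs of 1 bacterial protein, of which Mrps18a sits in the large subunit, as does Mrps30, in spite of their names. Their log2 fold changes were 0.23, -0.21 and 0.51, with standard errors of 0.31, 0.52 and 0.39. None passed the test, and differences among the 3 were not tested.

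The 5 members with an 8mer or 7mer-m8 site did not pass the test. Mrpl19 had a log2 fold change of -0.03 (SE 0.37), Mrpl48 of -0.25 (SE 0.20), Mrpl51 of 0.14 (SE 0.28), Mrps17 of -0.24 (SE 0.22) and Mrps30 of 0.11 (SE 0.29). The sign was negative in Mrpl19, Mrpl48 and Mrps17 and positive in Mrpl51 and Mrps30, and each 95% interval covers 0. In Mrpl19, Mrpl51 and Mrps30 the sign turned when certain libraries were left out, as given at the end. Mrpl48, the member of the 5 with the most counts, had 57.7, 58.2 and 42.8 CPM in miRNA-26b-/- and 69.7, 54.9 and 61.9 CPM in miRNA-26b+/+. Its log2 fold change was -0.11 without M2628.

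Mrpl44, which has a fold like that of RNase III and lies on chromosome 1, is the only member within 20 Mb of Mir26b, at 5.38 Mb. It had 12.3, 15.7 and 11.04 CPM in miRNA-26b-/- and 14.5, 13.0 and 16.5 CPM in miRNA-26b+/+. The log2 fold change was -0.18 (SE 0.32), and -0.35 without M2627 to -0.067 without M2628. Members lie on 17 chromosomes, 5 of them on chromosome 1.

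Summed over genes, the members took 0.160 to 0.193% of the counts of a library. The small subunit summed to 640, 627 and 535 CPM in miRNA-26b-/- and 582, 586 and 525 CPM in miRNA-26b+/+. The large subunit summed to 1294, 1288 and 1070 CPM against 1213, 1146 and 1131 CPM. Both sums were high in M2626 and M2627 and lower in M2628, so the groups overlapped.

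M2628 was the lowest library for 31 of 78 members and M2631 for 17, while M2626 was the highest for 24. Of all 16017 genes tested, M2628 was the lowest for 3285 and M2631 for 2722, and M2626 was the highest for 2929. The median deviation of M2628 from the mean of the 6 libraries, on the log2(CPM + 0.5) scale, was -0.10 over the small-subunit genes and -0.26 over the large-subunit genes, against 0.02 over all genes tested. The median coefficient of variation of a member was 23.9% over the miRNA-26b-/- mice and 18.0% over the miRNA-26b+/+ mice, and that of all genes tested was 27.6% and 23.3%. Genes of other tissues also differed between these libraries. In the order M2626 to M2631, adipocyte genes summed to 1154, 2478, 810, 1169, 1627 and 603 CPM, brown fat genes to 220, 496, 236, 294, 415 and 152 CPM, and cardiac and atrial muscle genes to 27.7, 352, 18.5, 73.0, 297 and 34.4 CPM. All 3 sums were highest in M2627, and M2628 and M2631 were among the 3 lowest libraries for each. M2628 had the highest sums of endothelial (1595 CPM), fibroblast (7493 CPM) and macrophage genes (743 CPM). The part of tissue composition in the members' values was not tested.

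**Figure D3:**
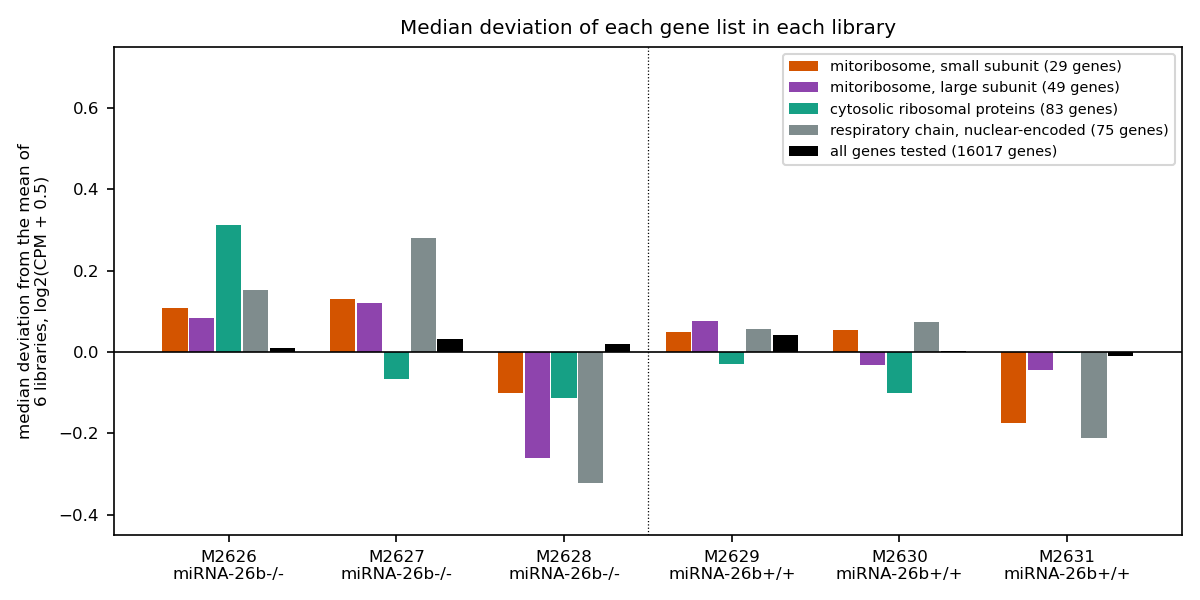
Median deviation of each gene list from the mean of the 6 libraries, in log2(CPM + 0.5), by library. The mitochondrial ribosomal genes and the respiratory chain genes lie below 0 in M2628 and M2631 and above 0 in M2626 and M2627, while the cytosolic ribosomal proteins stand out in M2626 (0.31).

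Respiratory chain genes coded in the nucleus had median deviations of -0.32 in M2628 and 0.28 in M2627. Of 75 such genes tested, 1 (1.33%) was higher and none lower in miRNA-26b-/- by an unadjusted edgeR p under 0.05. This is below the 6.47% over all genes tested. Their log2 fold changes had a median of 0.07. Of 83 cytosolic ribosomal protein genes tested, 2 (2.41%, also below 6.47%) were higher and none lower, and their median was 0.10. M2626 was the highest library for 68 of these 83, and for 2929 of all 16017 genes tested.

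Levels between genes were compared per kilobase of exon, as counts per kb of exon, scaled to the same total in each library. In the small subunit Mrps24 (74.8 ± 10.6, SD over 6 libraries), Mrps34 (69.7 ± 7.0) and Mrps28 (60.8 ± 11.7) were highest and Mrps10 (3.24), Mrps36 (6.59) and Mrps5 (7.49) lowest. In the large subunit Mrpl34 (119.5 ± 31.5), Mrpl54 (96.5 ± 14.8) and Mrpl52 (85.5 ± 25.4) were highest and Mrpl23 (2.5), Mrpl32 (5.79) and Mrpl19 (6.44) lowest. Neighbours differed by no more than the larger of their SDs in 26 of 28 pairs in the small subunit and in 46 of 48 in the large. The exceptions were Mrps14 over Mrps18a, Mrps36 over Mrps10, Mrpl15 over Mrpl19 and Mrpl32 over Mrpl23. The highest level was 23.1 times the lowest in the small subunit and 47.8 times in the large. With the median length of the coding transcripts in place of all exons, an alternative chosen after seeing the data, these were 11.9 and 37.4. By that length Mrps34 and Mrpl33 came first and Mrps36 and Mrpl19 last. Mrps10 then stood at place 24 of 29 and Mrpl23 at 44 of 49, and Mrps28 fell to place 9 and Mrpl34 to 11.

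**Figure D4:**
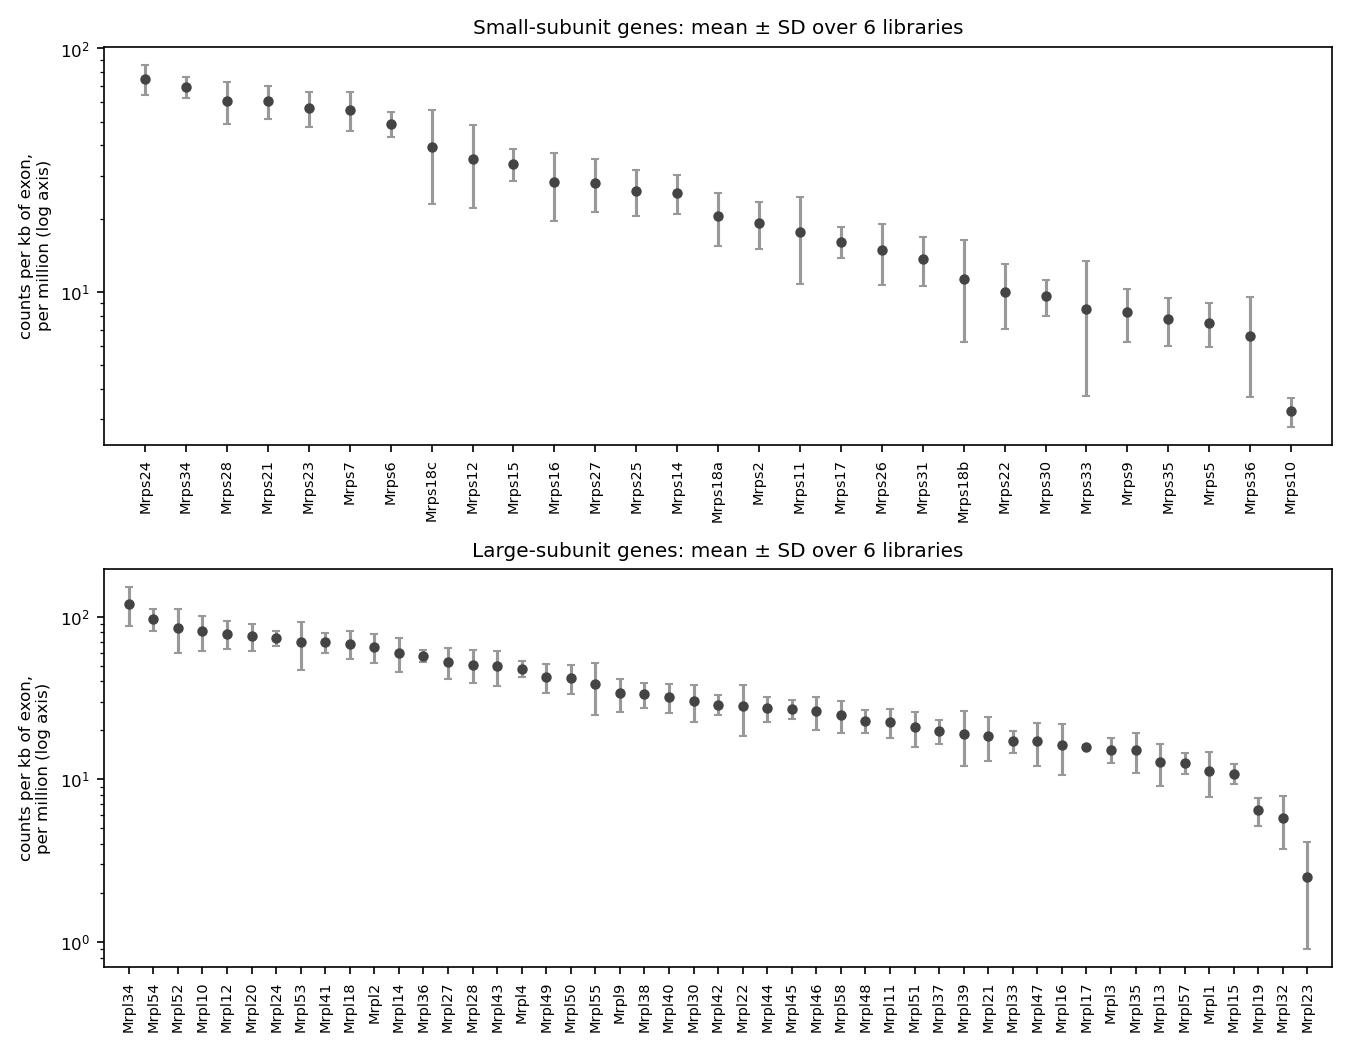
Level of each gene as counts per kb of exon, scaled to the same total in each library (log axis), mean ± SD over the 6 libraries, sorted within each subunit. Levels fall from 74.8 to 3.24 in the small subunit and from 119.5 to 2.5 in the large.

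Mean levels per kb of large-subunit genes were 1.32 to 1.41 times those of small-subunit genes in the 6 libraries. The ratio was 1.35 ± 0.04 in miRNA-26b-/- and 1.39 ± 0.01 in miRNA-26b+/+ (SD over 3 mice). Median levels per kb were less even. They were 22.8 ± 3.6 and 19.2 ± 1.0 in the small subunit, and 28.1 ± 3.2 and 28.5 ± 0.9 in the large, in the same order. The subunits were taken by name, so the small set holds Mrps18a, Mrps30 and Mrps36.

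Some levels rest on reads that could belong elsewhere. Exon bases were shared with another gene in 33 of 78 members and made up over 50% in 3, Mrpl53 (88.0%), Mrps34 (77.8%) and Mrps25 (69.8%). In 8 members over 10% of the 50-base stretches of their exons also occurred in another gene, and reads that map to several places were not counted. These 8 include Mrps36, Mrps33 and Mrpl23, which varied most, with highest over lowest libraries of 7.0, 12.3 and 6.55. The same 3 are the members with under 100 counts in a library, at 13, 14 and 31 counts. Of the rest of the 8, Mrps18b (3.74) and Mrpl22 (3.37) also varied, while Mrpl27 (1.59), Mrpl41 (1.48) and Mrps25 (1.76) were more even. Over all members the ratio was above 3 in 10 of 78. Mrps36, listed by its name, is known as a component of oxoglutarate dehydrogenase and not of the ribosome.

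A pair of features, of gene position and of promoter, were common among members. A head-to-head neighbour with a start within 1 kb was found for 33 of 78 members, 42.3%, and for 15.2% of the 13597 protein-coding genes tested. Promoter windows of RefSeq (GRCm38.p6), 250 bases before to 50 after a start, were found for 69 of 78 members. The NRF1 motif (GCGCA, any base, then GCGC) occurred in 18.8% of these and in 9.69% of the promoters of genes tested (4.78% of all). The ETS motif CCGGAAG occurred in 36.2% against 16.9% (9.12%) and the YY1 motif AAGATGGC in 17.4% against 4.46% (2.88%). Both strands were searched and the motifs could overlap. NRF1, ETS factors such as GABPA, and YY1 are known regulators of nuclear genes for mitochondrial proteins. Among the members whose groups did not overlap, Mrpl10, Mrpl40 and Mrps17 held none of these motifs and Mrpl42 held YY1. Mrpl17 held an ETS motif besides that of NRF1. A link between motif and genotype was not tested. The windows below are examples from 3 members whose groups did not overlap, with the motif in capitals, in the direction of the gene.
Mrps11 (YY1, chr7:78783014-78783041): tacgggcgccGCCATCTTtctgtcttcc
Mrps16 (ETS, chr14:20393548-20393574): tgggggcgctCTTCCGGgcttcaggct
Mrpl17 (NRF1, chr7:105811117-105811146): aggctctgatGCGCACGCGCaaacgcggta

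The rest of the mitochondrial translation pathway was read from lists of genes by role. Of 5 ribosomal proteins without an Mrp symbol, none passed an unadjusted p of 0.05. Chchd1, of the small subunit, had 28.5, 22.9 and 19.96 CPM in miRNA-26b-/- and 18.7, 14.3 and 14.1 CPM in miRNA-26b+/+. These do not overlap, as in 11.7% of all genes tested. Its log2 fold change was 0.58 (SE 0.29). Dap3, a GTP-binding small-subunit protein, had -0.10 (SE 0.25).

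Of 30 genes for assembly and rRNA modification, 2 were lower and none higher by an unadjusted edgeR p under 0.05, 6.67% of the list, which is near the 6.47% over all genes tested. Mtg1, an assembly GTPase, had 6.57, 9.36 and 3.73 CPM in miRNA-26b-/- and 12.5, 10.7 and 21.5 CPM in miRNA-26b+/+ (log2 fold change -1.18, SE 0.44). Mrm2, an rRNA methyltransferase, had 0.973, 2.76 and 1.76 CPM against 5.20, 7.04 and 5.13 CPM (-1.61, SE 0.63). In both, every knockout library lay below every wild-type library, and both had an adjusted p of 0.736. In 2 others of the list, Mterf4 and Mpv17l2, every knockout library lay above every wild-type library. Over all genes tested the groups did not overlap in 11.7%.

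Of 14 translation factors tested (Map1d was not matched in the table), 1 (7.14%, near the same 6.47%) was lower, Taco1, which activates translation of the cytochrome oxidase subunit COX1 mRNA. It had 4.08, 1.62 and 6.63 CPM in miRNA-26b-/- and 8.57, 9.45 and 11.2 CPM in miRNA-26b+/+ (log2 fold change -1.31, SE 0.52). Tufm, the elongation factor, had -0.28 (SE 0.28). Of 15 regulators of transcription, mRNA stability and biogenesis tested (Mterf1a was below the filter), 1 (6.67%, again near 6.47%) was lower, the coactivator Ppargc1b, with 1.17, 1.98 and 1.33 CPM against 5.56, 8.15 and 2.86 CPM (-1.85, SE 0.70). These 2 genes also had an adjusted p of 0.736.

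Named regulators of the mitochondrial genome and its RNA did not pass the test. Tfam, which packages and transcribes mitochondrial DNA, had a log2 fold change of -0.08 (SE 0.32), Polrmt, the polymerase, of 0.05 (SE 0.30) and Lrpprc, which holds mitochondrial mRNA stable, of -0.16 (SE 0.20). The rRNAs mt-Rnr1 and mt-Rnr2 had 0.34 (SE 0.23) and 0.19 (SE 0.22), with M2631 lowest for both. As the libraries were made from poly(A) RNA, the rRNA values measure the part of these rRNAs that was carried through that step.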

How the data were processed

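Read counts for each gene were deposited by the authors, who used STAR and featureCounts 1.6.4 (Subread) on mm10 and release M21 of GENCODE, per the file headers and the labels, over exons of each gene name, without strand, so that a read over more than 1 gene was counted for all of them and a read that maps to more than 1 place for none. The paper names release M23. A second deposited table of log2 CPM and the authors' fold changes and p-values was not used. Genes were kept at a sum of 2 counts or more and over 1 CPM in 2 or more libraries, and tested with edgeR 4.0.16 (R 4.3.3, TMM, quasi-likelihood test, prior count 0.125) over all genes, with Benjamini-Hochberg adjustment, and checked on simulated data. SE is the absolute log2 fold change over the square root of F. Alternatives were library size alone, RLE, upper quartile, DESeq2 1.42.0, limma voom 3.58.1, the earlier edgeR method, other filters and each library left out. Without molecular identifiers, reads are not independent molecules. The members, lists and tests were chosen with earlier results of these data known. Named genes are those with an unadjusted p under 0.05, the 4 largest fold changes and 3 highest and lowest levels of each subunit, groups that do not overlap, a seed site, nearness to Mir26b, or a role. No genome or protein sequence was used here.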

Additional observations from a re-analysis of the deposited data

How the results depend on the processing

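The number of small-subunit genes with an unadjusted p under 0.05 was 1, and 2 with library size alone, where Mrps16 joined Mrps11 (unadjusted edgeR p 0.0488), and 0 to 2 when a library was left out. In the large subunit it was 0, and 0 to 1 with a library left out. Over all genes tested it was 1036, and 686 without M2631 to 1692 without M2628. The median log2 fold change ranged from -0.02 to 0.15 in the small subunit and from -0.01 to 0.13 in the large over 14 alternatives each. With a library left out, Mrps11 ranged from 0.80 to 1.18 with unadjusted edgeR p-values of 0.00708 to 0.0789. Of the 16 members refitted one by one, 3 turned sign, namely Mrpl19 (-0.21 to 0.077 with a library left out, and above 0 without M2627, at 0.035, M2629, at 0.077, and M2631, at 0.063), Mrpl51 (-0.21 to 0.30, and below 0 without M2627, at -0.21) and Mrps30 (-0.042 to 0.30, and below 0 without M2627, at -0.042, and M2631, at -0.034). The cause was not tested. The ratio of the highest to the lowest level per kb in the small subunit was 23.1, and 11.9 with transcript lengths. The labels give no pairing of knockout with wild-type mice, so the groups were compared unpaired. Depth limits the lowest members, of which Mrps36 had 13 counts in M2626, and 3 members had under 100 counts in a library.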
